A study of Rhodotorula toruloides with 9 samples.

Results

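In the red basidiomycete yeast Rhodosporidium toruloides IFO0880, 4 genes were followed that the study grouped under glycerol utilization, with the gluconeogenesis gene FBP1 among them. They were STL1 (RTO4_10704), GUT1 (RTO4_11022), GUT2 (RTO4_11039) and FBP1 (RTO4_15423), found by the protein number that ends the gene name in the deposited tables. These are 4 of 8578 gene models, and all 4 were among the 8479 with an FPKM (fragments per kb of transcript and per M mapped reads, M for mega) above 0 in at least 1 library. The study put a gene in its groups for its fitness scores, for its induction in these same libraries, or for both, so a direction shared by the 4 genes is not independent evidence.

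Glycerol can enter yeast cells through Stl1, which in Saccharomyces cerevisiae carries glycerol together with protons. Glycerol kinase, encoded by GUT1, phosphorylates it to glycerol-3-phosphate, and the FAD-dependent glycerol-3-phosphate dehydrogenase of the mitochondrial inner membrane, encoded by GUT2, oxidizes this to dihydroxyacetone phosphate and passes the electrons to ubiquinone. Dihydroxyacetone phosphate can be respired, used for lipid, or led back to hexose phosphate, and fructose-1,6-bisphosphatase, encoded by FBP1, catalyzes the step of that upward route that phosphofructokinase catalyzes in the downward direction. In ascomycetes the catabolism of d-galacturonic acid (d-galUA) ends in pyruvate and glycerol, the glycerol being formed from l-glyceraldehyde by a reductase.

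Strain IFO0880 was grown in liquid Yeast Nitrogen Base medium with d-galUA, glycerol or d-glucose (d-glc) as the carbon source, and its mRNA was read as 50-bp single-end sequences. The labels give 3 d-galUA, 2 glycerol and 4 d-glc libraries of whole cells from log phase, whereas the methods of the study place the harvest at the onset of stationary phase, so the growth stage is not settled by these sources. The methods describe triplicate cultures, but the labels do not say which libraries came from separate cultures. Cultures on different carbon sources can also differ in growth rate and stage, which cannot be told apart from the carbon source here.

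The library labelled d-glc 4 went against its label. Over all gene models its log2(FPKM + 1) correlated with the libraries labelled glycerol at an r of 0.987 to 0.988, and with the other d-glc libraries at 0.876 to 0.878. The glycerol means of the study's table of all genes were met by this library and the 2 labelled glycerol, with a median difference of 5.96e-05% over the genes of that table used here, against 9.83% for the next of 84 sets of 3 libraries. It was therefore counted with glycerol, which gives 3 libraries per carbon source, and results are also given without it and as labelled. Depth was 25.8 to 51.9 M mapped reads per library. The 4 genes of the d-galUA pathway, RTO4_9774, RTO4_12062, RTO4_12061 and RTO4_11882, together took 3.77 to 4.17% of all TPM (the same estimate scaled to a fixed total per library) in the d-galUA libraries, 0.130 to 0.147% in the glycerol libraries and 0.0843 to 0.105% in the d-glc libraries.

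All 4 genes had their highest levels on d-galUA, and the level on d-galUA exceeded that on glycerol itself by 2.47- to 13.2-fold. Each d-galUA library lay above all 6 other libraries for all 4 genes. The same held for 16.1% of the 8479 genes tested. The plot of FPKM by library shows this gap for each gene.

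**Figure D1:**
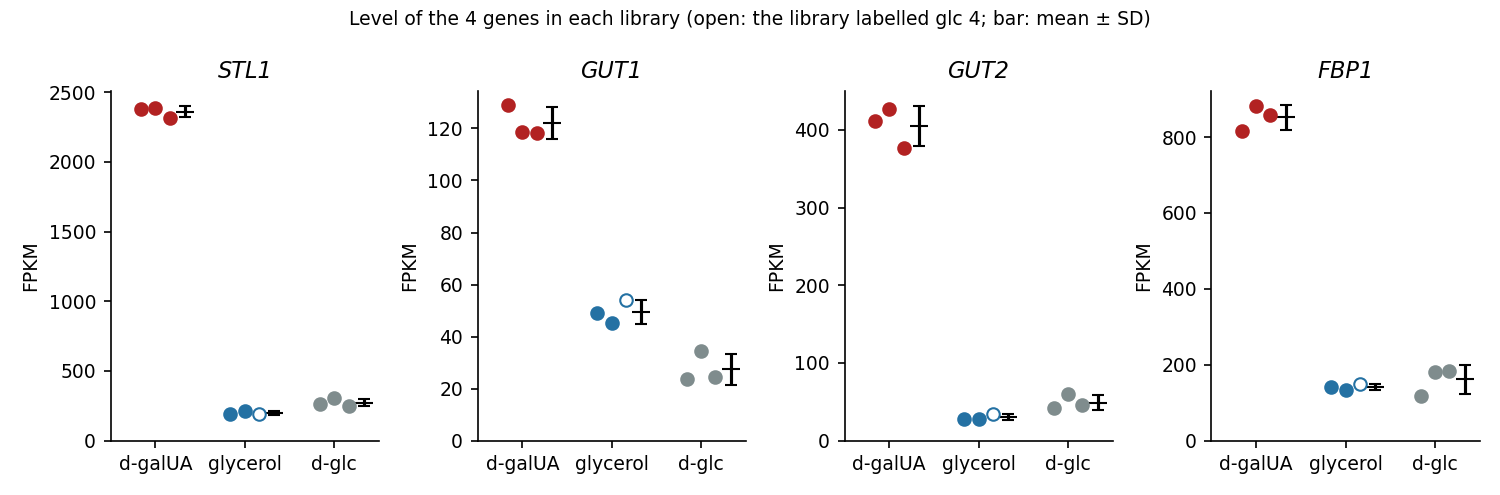
FPKM of STL1, GUT1, GUT2 and FBP1 (vertical axes from 0, a different scale for each gene) in each library on d-galUA, glycerol and d-glc. Points are libraries, the open point is the library labelled d-glc 4, and bars are the mean ± SD of 3 libraries. The d-galUA libraries lie above all others for every gene, and GUT1 is the gene with a higher mean on glycerol than on d-glc.

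STL1, the glycerol-proton symporter gene, was the most abundant of the 4 in every library. Its FPKM was 2379, 2389 and 2316 on d-galUA (replicates 1 to 3), 188 and 215 in the libraries labelled glycerol with 189 in the library labelled d-glc 4, and 265, 304 and 250 on d-glc. The d-galUA libraries were close to each other and far above the rest, and the mean was lowest on glycerol. In TPM, STL1 ranged from 3263 to 3397 on d-galUA, from 268 to 322 on glycerol and from 324 to 444 on d-glc. STL1 ranked between 35 and 38 among all gene models on d-galUA, between 529 and 617 on glycerol and between 366 and 447 on d-glc. Mean FPKM was 2361 ± 39.7 on d-galUA, 197 ± 15.2 on glycerol and 273 ± 27.6 on d-glc (SD, n = 3 each).

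GUT2, the mitochondrial glycerol-3-phosphate dehydrogenase gene, showed the largest ratio between d-galUA and glycerol among the 4 genes. Its FPKM was 411, 427 and 377 on d-galUA, 28.4 and 28.4 in the libraries labelled glycerol with 35.0 in the library labelled d-glc 4, and 42.2, 59.6 and 45.5 on d-glc. The mean was again lowest on glycerol. In TPM, GUT2 ranged from 531 to 607 on d-galUA, from 40.6 to 52.0 on glycerol and from 58.8 to 87.1 on d-glc. Mean FPKM was 405 ± 25.6 on d-galUA, 30.6 ± 3.79 on glycerol and 49.1 ± 9.23 on d-glc (SD, n = 3 each).

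GUT1, the glycerol kinase gene, was the lowest of the 4 on d-galUA and followed another order. Its FPKM was 129, 119 and 118 on d-galUA, 49.0 and 45.1 in the libraries labelled glycerol with 54.2 in the library labelled d-glc 4, and 23.7, 34.3 and 24.5 on d-glc. Here the mean on glycerol stood between those on d-galUA and on d-glc. In TPM, GUT1 ranged from 167 to 184 on d-galUA, from 67.6 to 80.7 on glycerol and from 31.6 to 50.2 on d-glc. Mean FPKM was 122 ± 6.17 on d-galUA, 49.4 ± 4.56 on glycerol and 27.5 ± 5.92 on d-glc (SD, n = 3 each). Its rank among all gene models was between 820 and 908 on d-galUA, between 2005 and 2226 on glycerol and between 3045 and 3920 on d-glc.

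FBP1, the gluconeogenic fructose-1,6-bisphosphatase gene, was the second most abundant of the 4 in every library. Its FPKM was 817, 881 and 858 on d-galUA, 142 and 134 in the libraries labelled glycerol with 149 in the library labelled d-glc 4, and 118, 182 and 184 on d-glc. The glycerol and d-glc libraries overlapped, and the spread on d-glc came from replicate 1, which was lower than the other two. In TPM, FBP1 ranged from 1166 to 1253 on d-galUA, from 200.5 to 222 on glycerol and from 165 to 266 on d-glc. Mean FPKM was 852 ± 32.6 on d-galUA, 142 ± 7.80 on glycerol and 161 ± 37.6 on d-glc (SD, n = 3 each).

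The 4 genes together took 0.531 ± 0.0130% of all TPM on d-galUA, 0.0617 ± 0.00300% on glycerol and 0.0709 ± 0.0120% on d-glc (SD, n = 3 each). By FPKM, which is relative to transcript length, the order in every d-galUA and d-glc library was STL1, FBP1, GUT2 and GUT1 from high to low. In the glycerol libraries GUT1 stood above GUT2. The lowest mean depth over these genes was 45.1 reads per base (GUT2, library labelled d-glc 4), and the highest was 4403 (STL1, d-galUA replicate 2).

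The comparison of d-galUA with glycerol addressed which genes stand higher on d-galUA than on a carbon source that uses the glycerol route itself. Genes were counted as higher or lower where the adjusted p of the limma contrast (Benjamini-Hochberg over 8479 genes) was under 0.05, mean FPKM reached 5 on at least 1 of the carbon sources compared and the means differed at least 2-fold. By this rule all 4 genes were higher on d-galUA than on glycerol, as were 6.95% of the genes tested, and 7.7% were lower. GUT2 was 13.2-fold higher, with a log2 fold change of 3.69 ± 0.14 (SE, adjusted p = 1.42e-08, limma). STL1 was 12.0-fold higher, with a log2 fold change of 3.58 ± 0.10 (adjusted p = 2.09e-09, limma). These changes were the 34th and the 39th highest of all genes tested.

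FBP1 was 6.0-fold higher on d-galUA than on glycerol, with a log2 fold change of 2.58 ± 0.16 (SE, adjusted p = 5.07e-07, limma). GUT1 was 2.47-fold higher, with a log2 fold change of 1.29 ± 0.14 (adjusted p = 3.42e-05, limma). Its 95% interval, 0.98 to 1.60, lay below those of the other 3 genes, whose lowest bound was 2.23 for FBP1. With the library labelled d-glc 4 left out or counted as labelled, and in all other alternatives, the 4 genes kept an adjusted p under 0.05.

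Against d-glc, all 4 genes were again higher on d-galUA, as were 8.24% of the genes tested, while 7.44% were lower. The d-galUA libraries are the same as above, so this comparison is not independent of that with glycerol. STL1 was 8.65-fold higher, with a log2 fold change of 3.11 ± 0.10 (SE, adjusted p = 4.62e-09, limma). GUT2 was 8.25-fold higher, with a log2 fold change of 3.03 ± 0.14 (adjusted p = 4.81e-08). FBP1 was 5.28-fold higher, with a log2 fold change of 2.42 ± 0.16 (adjusted p = 6.76e-07), and GUT1 was 4.44-fold higher, with a log2 fold change of 2.13 ± 0.14 (adjusted p = 7.34e-07). GUT1 thus had the smallest log2 fold change of the 4 genes in both comparisons, but here its 95% interval (1.82 to 2.44) overlapped that of FBP1 (2.08 to 2.77).

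**Figure D2:**
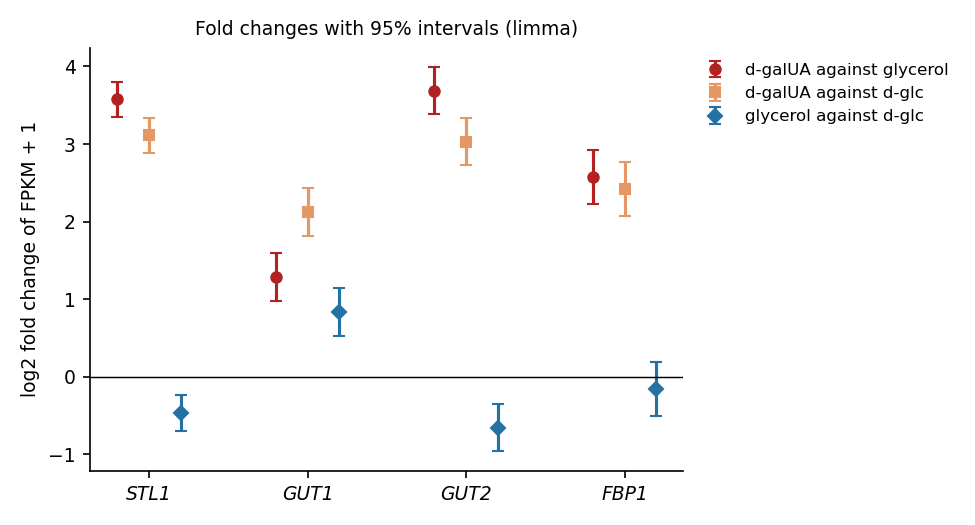
log2 fold change of FPKM + 1 (vertical axis) of each gene on d-galUA against glycerol (circles), d-galUA against d-glc (squares) and glycerol against d-glc (diamonds), with 95% intervals from limma over 9 libraries. Every interval of the d-galUA comparisons lies above 0, and in glycerol against d-glc GUT1 is above 0, STL1 and GUT2 are below 0 and the interval of FBP1 spans 0.

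On glycerol against d-glc, none of the 4 genes reached a 2-fold difference, and so none was counted, where 9% of the genes tested were higher and 9.81% were lower. The differences that passed the adjusted p alone ran in opposite directions. Passing it alone was frequent, with 2268 of the 8479 genes tested higher on glycerol and 2262 lower (limma). GUT1 was higher on glycerol, at 1.80-fold of the d-glc mean (log2 fold change 0.84 ± 0.14 SE, adjusted p = 5.14e-04, limma). GUT2 was lower on glycerol, at 0.623-fold (log2 fold change -0.66 ± 0.14, adjusted p = 0.00228), and STL1 was lower, at 0.722-fold (log2 fold change -0.47 ± 0.10, adjusted p = 0.00313). FBP1 did not pass, with a log2 fold change of -0.16 and a 95% interval from -0.50 to 0.19 (adjusted p = 0.425).

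With the library labelled d-glc 4 left out, GUT1, GUT2 and STL1 all kept an adjusted p under 0.05 between glycerol and d-glc. With it counted as labelled none of them did, at a log2 fold change of 0.53 for GUT1 (adjusted p = 0.266), -0.64 for GUT2 (adjusted p = 0.172) and -0.30 for STL1 (adjusted p = 0.302, limma). A Ballgown-type test, an F test per gene on the libraries of glycerol and d-glc alone with library size as a term, did not pass the threshold for STL1 (log2 fold change -0.47, adjusted p = 0.0711). Without d-glc replicate 1, the library with the low FBP1 level, FBP1 was lower on glycerol (log2 fold change -0.37, adjusted p = 0.00561).

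Since GUT1 and GUT2 encode consecutive enzymes and FPKM is relative to length, their ratio was taken within each library. The ratio of GUT2 to GUT1 was 3.18, 3.6 and 3.18 in the d-galUA libraries, 0.580 and 0.629 in the libraries labelled glycerol with 0.645 in the library labelled d-glc 4, and 1.78, 1.74 and 1.86 in the d-glc libraries. No 2 carbon sources overlapped, and the replicates of each differed little. How often the ratio of 2 other genes separates in this way was not counted. Separation of single genes was frequent, with every d-galUA library above the 6 others for 16.1% of the genes tested. The ratio largely restates the fold changes of GUT1 and GUT2 given above and is not separate evidence. The geometric mean ratio on d-galUA was 5.37-fold that on glycerol and 1.85-fold that on d-glc, and that on glycerol was 0.344-fold that on d-glc. Each of the 3 comparisons gave p = 0.1 in a two-sided exact permutation test of 3 against 3 libraries (0.1 after adjustment over the 3), which is the smallest p this design allows. The ratio of the library labelled d-glc 4 lay with the glycerol libraries.

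FBP1 was also set beside the phosphofructokinase gene (RTO4_8867), whose product catalyzes the opposite reaction, a ratio chosen after the values were seen. FBP1 had 16.1, 15.7 and 16.2 times the FPKM of phosphofructokinase in the d-galUA libraries, 1.44, 1.3 and, in the library labelled d-glc 4, 1.39 times on glycerol, and 1.12, 2.09 and 1.58 times on d-glc. The phosphofructokinase gene itself had 53.3 ± 2.65 FPKM on d-galUA, 103 ± 4.18 on glycerol and 103 ± 14.7 on d-glc (SD, n = 3 each). Its difference between d-galUA and glycerol passed the adjusted p (log2 fold change -0.94, adjusted p = 6.28e-05, limma) but not the 2-fold criterion.

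**Figure D3:**
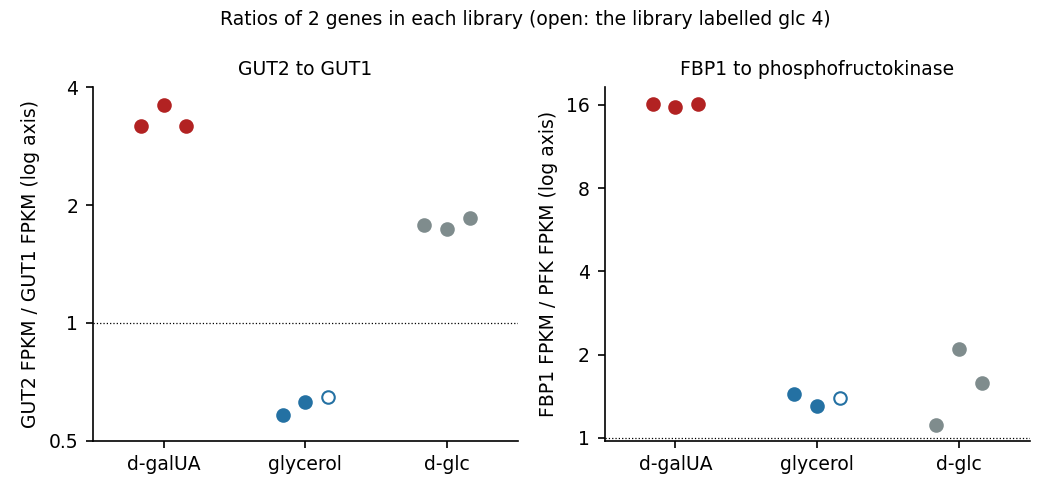
Ratio of GUT2 to GUT1 FPKM (left) and of FBP1 to phosphofructokinase FPKM (right) in each library on d-galUA, glycerol and d-glc, on log axes. Points are libraries, the open point is the library labelled d-glc 4, and the dotted line is a ratio of 1. GUT2 exceeds GUT1 on d-galUA and d-glc and lies below it on glycerol, and the FBP1 ratio on d-galUA is 15.7 to 16.2.

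The enzymes around the glycerol route were described through 7 lists with 51 genes, named by S. cerevisiae ortholog. The lists hold mainly genes with a high level on d-galUA, because the annotation used for them runs in falling order of that level, and they are incomplete. Their counts of genes higher on d-galUA are therefore not like for like with the shares of all genes given beside them. Among the 7 steps that glycolysis shares with gluconeogenesis, 0 were higher and 1 was lower in d-galUA against glycerol, where 6.95% and 7.7% of all genes tested were. The median log2 fold change of the 7 genes was -0.32, against 0.03 for all genes tested. At an unadjusted p under 0.05, 0 were higher and 4 lower (limma), where 28.7% of all genes tested were higher and 26.8% lower at that threshold. In d-galUA against d-glc 1 was higher and 5 were lower at that threshold (limma), where 27.9% and 28.6% of all genes tested were. The gene counted as lower on d-galUA than on glycerol was enolase (RTO4_9037), with 336 FPKM on d-galUA against 809 on glycerol. Aldolase FBA1 (RTO4_15420) had 729 FPKM on d-galUA and 675 on glycerol, and PGI1, which interconverts glucose and fructose phosphates, had 464 on d-galUA and 458 on glycerol. TPI1, TDH, PGK1 and GPM1, the other shared steps, had 0.810, 0.516, 0.734 and 0.799 times the glycerol mean. Against d-glc, 3 of these 7 genes were lower on d-galUA, where 7.44% of all genes tested were. The 3 were enolase, PGK1 and GPM1, at 0.374, 0.480 and 0.441 times the d-glc mean. The median log2 fold change of the 7 genes was -0.86 (-0.0032 for all genes tested). FBA1 and PGI1, the steps on each side of FBP1 in the pathway, were not counted in either comparison.

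Of the 4 genes for steps of glycolysis alone, pyruvate kinase (RTO4_13002) was lower on d-galUA, with 148 FPKM on d-galUA, 356 on glycerol and 452 on d-glc (limma, -1.26 on the log2 scale with glycerol as reference, adjusted p = 3.53e-06, and -1.61 with d-glc, adjusted p = 4.94e-07). The hexokinase or glucokinase genes RTO4_11982 and RTO4_10264 and the phosphofructokinase gene did not reach 2-fold in either comparison. The median log2 fold change of the list was -0.54 with glycerol and -0.65 with d-glc as the other carbon source.

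Of 8 genes for phosphoenolpyruvate synthesis, the glyoxylate route and the use of organic acids, d-galUA against glycerol gave 3 higher and 0 lower, where 6.95% and 7.7% of all genes were. Against d-glc 4 were higher and 0 lower, where 8.24% and 7.44% of all genes were. At an unadjusted p under 0.05 (limma), 3 were higher and 2 lower against glycerol, where 28.7% and 26.8% of all genes were. Against d-glc 5 were higher and 3 lower at that threshold (limma), where 27.9% and 28.6% of all genes were. The median log2 fold change of the 8 genes was 0.09 in the comparison with glycerol and 1.19 in that with d-glc. PCK1 (phosphoenolpyruvate carboxykinase, RTO4_10841), which like FBP1 is a key enzyme of gluconeogenesis, had 74.4 FPKM on d-galUA, 59.7 on glycerol and 105 on d-glc, so it did not share the level pattern of FBP1 (log2 fold change 0.31 against glycerol, adjusted p = 0.118, limma). Pyruvate carboxylase (RTO4_16630), which forms oxaloacetate, was 2.58-fold higher on d-galUA than on glycerol. SFC1 (RTO4_12605), a mitochondrial succinate-fumarate carrier in S. cerevisiae, had 192 FPKM on d-galUA, 6.83 on glycerol and 17.7 on d-glc. The CoA transferase gene ACH1 (RTO4_13797) was 2.26-fold higher on d-galUA than on glycerol. Its level was highest on d-glc, with 73.8 FPKM on d-galUA, 32.7 on glycerol and 135 on d-glc. JEN1 (RTO4_10184), a lactate and pyruvate permease in S. cerevisiae, had 200.4 FPKM on d-galUA, 252 on glycerol and 3.86 on d-glc. The acetyl-CoA synthetase gene (RTO4_14597) and the ADY2/ATO2 homolog (RTO4_13824), an acetate transporter family in S. cerevisiae, had 3.55 and 2.74 times their d-glc means on d-galUA and were counted as higher, and malate synthase (RTO4_9457) did not reach 2-fold in either comparison.

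For pyruvate, the other product of the d-galUA pathway, d-galUA against glycerol gave 3 of 7 genes higher and 0 lower (median log2 fold change 0.71). Of all genes tested, 6.95% were higher and 7.7% lower. The 3 were the pyruvate dehydrogenase subunit genes PDA1 (2.41-fold) and PDB1 (2.17-fold) and PDX1 (2.03-fold). At an unadjusted p under 0.05, 6 of the 7 were higher and 0 lower (limma), where 28.7% and 26.8% of all genes were. LAT1, LPD1 and the mitochondrial pyruvate carrier genes MPC1 and MPC2/MPC3 had 1.16 to 1.63 times the glycerol mean. Against d-glc none of the 7 genes reached the 2-fold criterion, while 4 were higher and 0 lower at an unadjusted p under 0.05, where 27.9% and 28.6% of all genes were (limma, median log2 fold change of the 7 genes 0.38).

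Glycerol-3-phosphate, the product of GUT1, is also the backbone of triacylglycerol, a storage lipid for which this yeast is known. Of 6 genes for its acylation and for triacylglycerol synthesis, ALE1 (a lysophospholipid acyltransferase) was higher on d-galUA than on glycerol, at 2.05-fold, and none was lower. Of all genes tested, 6.95% were higher and 7.7% lower. At an unadjusted p under 0.05, 2 of the 6 were higher and 0 lower (limma), where 28.7% and 26.8% of all genes were. SCT1, the acyltransferase that uses glycerol-3-phosphate, had 85.5 FPKM on d-galUA, 77.4 on glycerol and 61.4 on d-glc, and DGA1, which makes triacylglycerol, had 107, 90.8 and 89.4 FPKM on the same carbon sources. SLC1, CDS1 and DGK1 did not reach 2-fold in either comparison, and against d-glc 0 of the 6 genes were counted, with all 6 higher at an unadjusted p under 0.05, where 27.9% of all genes were (limma).

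Of 8 genes for trehalose and glycogen, which are made from the hexose phosphate that gluconeogenesis supplies, 0 were counted on d-galUA against glycerol. At an unadjusted p under 0.05, 2 were higher and 3 lower (limma), where 28.7% and 26.8% of all genes were. Against d-glc 3 were higher and 0 lower, where 8.24% and 7.44% of all genes were. These 3 were UGP1 (UDP-glucose pyrophosphorylase, 3.78-fold), GLC3 (glycogen branching enzyme, 2.87-fold) and phosphoglucomutase (2.45-fold). They were also higher on glycerol than on d-glc, at 3.36-, 5.02- and 2.72-fold. TPS1, TPS2, the glycogen synthase gene, GPH1 and the glycogenin gene stayed under 2-fold on d-galUA against d-glc. At an unadjusted p under 0.05, 5 of the 8 were higher and 0 lower against d-glc (limma), where 27.9% and 28.6% of all genes were. Of 11 genes for the chain that takes electrons from ubiquinone or delivers them to it, as Gut2 does, none was counted on d-galUA against glycerol, with 5 higher and 0 lower at an unadjusted p under 0.05, where 28.7% and 26.8% of all genes were (limma). Against d-glc the succinate dehydrogenase subunit genes SDH3 and SDH4 were higher, at 2.24- and 2.06-fold. On glycerol these 2 had 1.52 and 2.25 times their d-glc means, and SDH4 was counted as higher there too. The external NADH dehydrogenase gene (RTO4_8972) was lower, with 143 FPKM on d-galUA, 124 on glycerol and 588 on d-glc. Of all genes tested, 8.24% were higher and 7.44% lower. At an unadjusted p under 0.05, 7 of the 11 genes were higher and 1 lower against d-glc (limma), where 27.9% and 28.6% of all genes were.

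**Figure D4:**
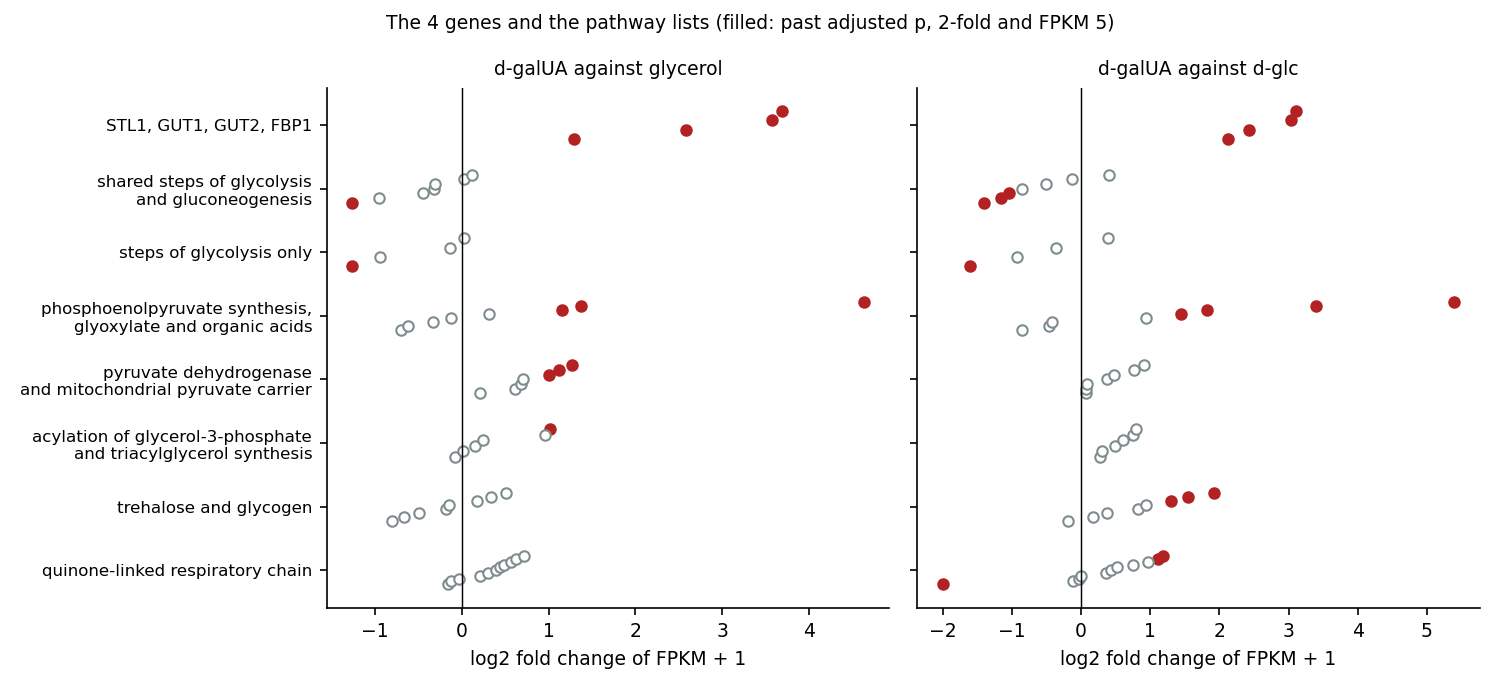
log2 fold change of FPKM + 1 (horizontal axes) on d-galUA against glycerol (left) and against d-glc (right) for the 4 genes and the 51 genes of 7 lists. Each point is a gene, filled where it was counted as higher or lower. The 4 genes lie at 1.29 to 3.69 on the left and at 2.13 to 3.11 on the right, and SFC1 on the left (4.63) and SFC1 and JEN1 on the right (3.39 and 5.39) lie beyond them.

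In the genome of strain IFO0880 (version 4 gene models), GUT1 lies on the + strand of scaffold 14 from 685010 to 688562 and GUT2 on the - strand of the same scaffold from 726103 to 730280. They are 37540 bp apart with 16 gene models between them. STL1 lies on the - strand of scaffold 13 from 653967 to 656080, and FBP1 on the - strand of scaffold 7 from 774065 to 776036. No other gene model overlaps any of the 4. These positions span exons and introns together, which the deposited tables do not divide.

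The 3 gene models on each side of each gene gave 24 neighbors. On d-galUA against glycerol, 3 of these were higher and 1 was lower, where 6.95% and 7.7% of all genes tested were. Against d-glc 5 were higher and 0 lower, where 8.24% and 7.44% of all genes were. Next to STL1, RTO4_10705 lies 38 bp away on the same strand. Its FPKM was 325, 320 and 337 on d-galUA, 21.1 and 33.1 in the libraries labelled glycerol with 22.7 in the library labelled d-glc 4, and 36.4, 39.8 and 43.1 on d-glc. It thus had the high level on d-galUA that STL1 has, with a log2 fold change of 3.65 ± 0.15 against glycerol (SE, adjusted p = 2.69e-08, limma). Its ratio to STL1 was 0.134 to 0.146 on d-galUA, 0.112 to 0.154 on glycerol and 0.131 to 0.172 on d-glc. Whether some of its reads come from transcripts that cross the 38-bp gap was not tested, and the strand setting of the counting is not given in the sources used here. The gene beyond it, RTO4_10706 (DUS4, a tRNA dihydrouridine synthase in S. cerevisiae), was higher as well, with 57.8 FPKM on d-galUA, 9.92 on glycerol and 20.5 on d-glc.

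RTO4_11036, the third gene model from GUT2 and 3549 bp away, had 589 ± 50.3 FPKM on d-galUA, 34.5 ± 7.52 on glycerol and 34.2 ± 11.9 on d-glc (SD, n = 3 each). The gene models between it and GUT2, RTO4_11037 and RTO4_11038, were not counted and had 6.85 and 2.42 FPKM on d-galUA. RTO4_11040, 6 bp from GUT2 on the opposite strand, had 34.2 FPKM on d-galUA, 21.2 on glycerol and 23.2 on d-glc.

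Beside GUT1, RTO4_11023 lies 148 bp away on the same strand and was high on glycerol. Its FPKM was 65.0, 61.9 and 58.0 on d-galUA, 218 and 217 in the libraries labelled glycerol with 218 in the library labelled d-glc 4, and 15.9, 27.6 and 19.9 on d-glc. The order of the carbon sources was thus not that of GUT1. It was lower on d-galUA than on glycerol (log2 fold change -1.81 ± 0.16 SE, adjusted p = 8.31e-06, limma) and higher on glycerol than on d-glc (3.34 ± 0.16, adjusted p = 7.12e-08). On the other side of GUT1 lies POR1 (RTO4_11021), the mitochondrial porin gene, whose FPKM was 2953 ± 152 on d-galUA, 2858 ± 305 on glycerol and 2829 ± 519 on d-glc (SD, n = 3 each). Next to FBP1, RTO4_15422 at 95 bp and RTO4_15424 at 171 bp were not counted in either comparison, and RTO4_15421 was higher in the d-galUA libraries than in those on d-glc (log2 fold change 1.47, adjusted p = 0.00166, limma).

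**Figure D5:**
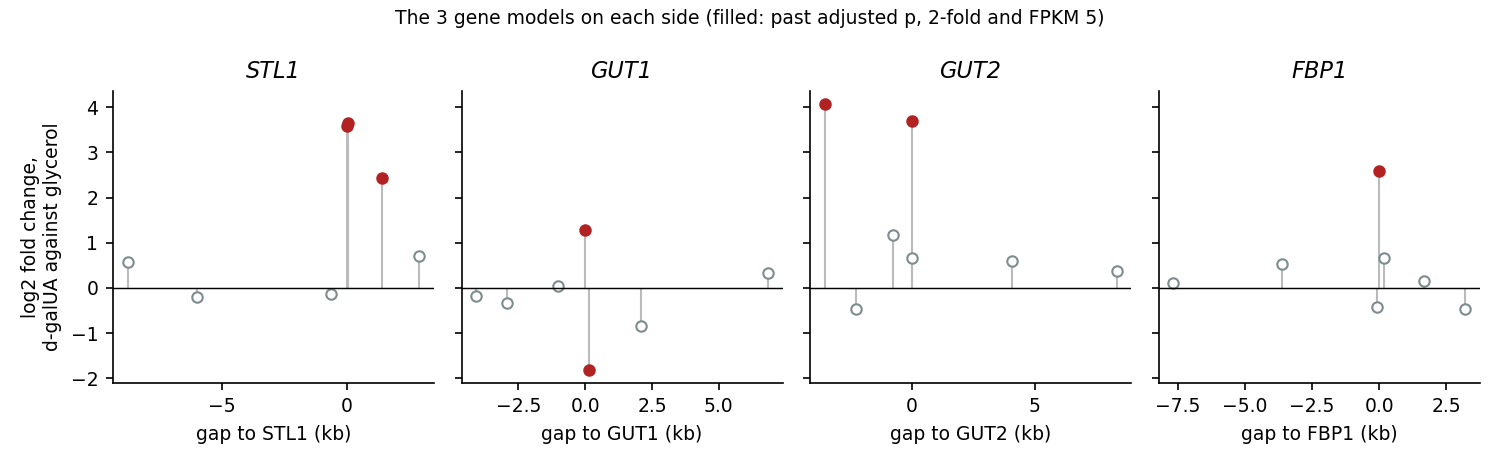
log2 fold change of FPKM + 1 on d-galUA against glycerol (vertical axis) of each gene and of the 3 gene models on each side, by the gap to the gene in kb (horizontal axis, the gene itself at 0, lower scaffold positions to the left). Filled points were counted as higher or lower. RTO4_10705 and RTO4_10706 beside STL1 and RTO4_11036 beside GUT2 are filled above 0, and RTO4_11023 beside GUT1 is filled below 0.

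Likeness of level across the 9 libraries was measured by Pearson's r of log2(FPKM + 1) among 7235 genes with a mean FPKM of at least 5 on some carbon source. It is a description over libraries that share 3 carbon sources. STL1 and GUT2 were close to each other (r = 0.995, GUT2 being the 5th of 7234 genes by likeness to STL1). FBP1 followed at 0.986 with both of them. GUT1 was less like the others, at 0.857 with STL1, 0.840 with GUT2 and 0.888 with FBP1. An r of 0.95 or more was reached by 171 to 186 of 7234 genes for each of the 4, so such an r was not limited to these genes.

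Outside the 4 genes, the closest to GUT2 was RTO4_11882, the d-galUA reductase gene of the first step of d-galUA catabolism (r = 0.997). It was also the second closest to STL1 (r = 0.998). Its mean FPKM was 7667 on d-galUA, 63.8 on glycerol and 118 on d-glc, so it had the same order of carbon sources as STL1 and GUT2, with glycerol lowest. The other close genes were RTO4_8451 for both STL1 and GUT2, RTO4_10387 for STL1 and RTO4_14839 for GUT2. The closest to GUT1 were RTO4_11580, with 169 FPKM on d-galUA, 41.2 on glycerol and 18.8 on d-glc (r = 0.996), RTO4_9122 and RTO4_14024. The closest to FBP1 were RTO4_14950, with 301 FPKM on d-galUA, 12.2 on glycerol and 16.5 on d-glc (r = 0.999), RTO4_16101 and RTO4_15897.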

How the data were processed

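The authors mapped 50-bp single-end reads with HISAT2 2.1.0 and estimated abundance per gene model with StringTie 1.3.3b. Strand setting, multi-mapping reads and low-value filters are not given in the sources used here. Deposited FPKM is relative to transcript length and mapped reads, the TPM that the authors deposited rescales it to an equal total in all libraries (1.29 to 1.50 times FPKM), and the deposited coverage signal is mean read depth over a gene. Depth was computed from coverage and FPKM.

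Contrasts were fitted with limma 3.58.1 (R 4.3.3, mean-variance trend) on log2(FPKM + 1) with 9 libraries in 1 fit, so fold changes of low genes are understated. The deposited values are not counts and no count test was run. P-values measure the spread between these libraries only. Recovery by adjusted p was tested on simulated data with 200 genes changed. Of genes changed 2-fold 85 of 100 were recovered, and of genes changed 4-fold 99 of 100, with 5 unchanged genes called. The simulation drew noise independently for each gene and changed far fewer genes than the data show. On d-galUA against glycerol, 2138 genes were higher and 2042 lower by adjusted p (limma). The simulated rates therefore do not give the recovery or the false calls in these libraries. Ratios were tested with scipy 1.17.1.

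The 4 genes, the lists and the tests were chosen with earlier results of these data known. Genes named are the 4, list genes that were counted or whose list has under 9 genes, the 3 gene models on each side, and the 3 genes most alike by r. Fitness data were not analysed here.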

Additional observations from a re-analysis of the deposited data

How the results depend on the processing

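The 8 log2 fold changes of the 4 genes on d-galUA against glycerol and against d-glc kept their direction and an adjusted p under 0.05 in all 22 alternatives each (limma, or a Ballgown-type test for that alternative). The alternatives covered the pseudocount, TPM, scaling, filters, the spread model, the grouping, a block and each library left out in turn. Leaving out the library labelled d-glc 4 is counted both under the grouping and among the libraries left out, which is the same fit. Against glycerol, the log2 fold change ranged from 3.53 to 3.64 for STL1, 1.22 to 1.40 for GUT1, 3.53 to 3.83 for GUT2 and 2.53 to 2.62 for FBP1. The largest adjusted p among these 8 was 0.0223, for GUT1 against glycerol. On glycerol against d-glc, groups as labelled gave adjusted p above 0.05 for STL1 (-0.30), GUT1 (0.53) and GUT2 (-0.64), and the Ballgown-type test did so for STL1 (-0.47, adjusted p = 0.0711). FBP1 ranged from -0.37 to -0.046 over the alternatives and passed without d-glc replicate 1 (adjusted p = 0.00561). The log2 difference of the GUT2 to GUT1 ratio as labelled was 1.26 for d-galUA minus d-glc and -1.20 for glycerol minus d-glc, against 0.89 and -1.54 with the library counted with glycerol.

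Counts of genes higher and lower changed by over 1.5 times under only 2 of the alternatives. As labelled, d-galUA against glycerol gave 392 lower genes (653 in the grouping used), d-galUA against d-glc gave 417 higher (699) and 359 lower (631), and glycerol against d-glc gave 1 higher (763) and 0 lower (832), where 843 were higher and 1407 lower at an unadjusted p under 0.05 (limma). Without the fold criterion, the higher and lower genes numbered 1882 and 1880 for d-galUA against glycerol, 1798 and 2006 for d-galUA against d-glc, and 2019 and 2019 for glycerol against d-glc.

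The labels share replicate numbers across carbon sources, but do not say what they mean. Same-numbered libraries deviated from their group means with an r of -0.10 to 0.17, and 2 of 8 libraries correlated best with a library of their own number, so the numbers were not taken as pairs. With a replicate block, which drops the library labelled d-glc 4 because no other carries its number, the log2 fold change against glycerol was 1.40 for GUT1, 585 genes were higher and 644 lower in that comparison, and no call on the 4 genes changed. Scaling by median of ratios or quantiles moved the median of all genes by under 0.1 on the log2 scale.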
